A study of Homo sapiens with 6 samples.

Results

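Cells make cholesterol from acetyl-CoA through the mevalonate pathway to squalene, which is closed into lanosterol and trimmed to cholesterol, and they make fatty acids from the same precursor. SREBP transcription factors, encoded by SREBF1 and SREBF2, drive the genes of both branches. SCAP carries SREBP from the endoplasmic reticulum to the Golgi for cleavage when sterol is low, and INSIG1 holds it back when sterol is high. Squamous carcinoma cells, like other dividing cells, need both products for new membranes.

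The genes described here are 30 of the 29816 genes in an expression table of the human line KYSE-150, established from an esophageal squamous cell carcinoma. They were matched by symbol to a list of sterol synthesis, SREBP control and fatty acid synthesis genes. No measured value entered the matching, but the list itself was chosen with earlier results of these data known. All 30 had a row: 18 enzymes of sterol synthesis (7 of the mevalonate steps and 11 from squalene to cholesterol), 5 genes of SREBP control and sterol transport, and 7 genes of fatty acid synthesis. RNA was sequenced from 3 libraries of cells that received the control small interfering RNA si-NC and from 3 that received si-circTMEM45A, aimed at a circular RNA of the TMEM45A gene. Time after transfection and dose, and whether replicates were separate cultures, were not given in the sources used here, so each p-value measures the spread between libraries that may be technical repeats.

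Each library held 16636248 to 17323964 reads assigned to genes. The host gene TMEM45A was at 3.26, 2.90 and 3.19 FPKM with si-NC and at 2.34, 1.91 and 2.11 with si-circTMEM45A (FPKM is fragments per kilobase of gene length, scaled to library size), and the circle itself was not measured. The squamous markers KRT5, KRT14, KRT17, TP63 and DSG3 were expressed, of which KRT17 rose and the other 4 fell, and KRT6A and SOX2 were under 1 FPKM in every library. The summed FPKM of these 7 markers was 476 to 508 with si-NC and 366 to 400 with si-circTMEM45A; its part in the results below was not tested. Of the 12 listed markers of fibroblasts, immune cells, endothelium, adipocytes and hepatocytes that had a row, only COL1A1 reached 1 FPKM in at least 3 libraries, and the summed level of each of these 4 lists stayed at or under 2.38 FPKM in every library. PTPRC and PECAM1, defining markers of immune cells and endothelium, were at 0 in 4 and 5 of the 6 libraries, and no listed marker with a row was at 0 in all 6.

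With si-circTMEM45A, 5 of the 30 genes fell and 0 rose. The 5 were the stearoyl-CoA desaturase SCD, the citrate lyase ACLY and the sterol enzymes MSMO1, SQLE and HSD17B7. SREBF1, SREBF2 and INSIG1 each differed by under 4% between the group means and did not pass the test. In bulk RNA, fewer cells of a type and less RNA per cell cannot be told apart. The test was limma on log2(FPKM + 1) over the 12676 genes with at least 1 FPKM in at least 3 libraries, with a Benjamini-Hochberg adjusted p threshold of 0.05. Of the members 27 reached that filter, and 18.5% of these were called lower, against 7.64% of all tested genes. Calls in either direction made up the same 18.5% of the tested members and 18.8% of all tested genes, and 11.1% of all tested genes were called higher. These shares were not matched for level: the median level was 28.3 FPKM for the tested members and 6.91 FPKM for all tested genes. With a filter of at least 5 FPKM, 946 of 7679 tested genes were called lower and 1356 higher. Of the members, 6 were then called lower and 1 higher. At an unadjusted p of 0.05, 10 tested members were lower and 3 higher, where 13.8% of all tested genes were lower and 20.3% higher. In limma voom on reads recovered from the FPKM values, 12 members were lower and 3 higher, where 11.1% of all tested genes were called lower and 15.5% higher. Over all tested genes 1411 rose and 969 fell, a split that became 1021 and 1237 with median-of-ratios scaling and 1119 and 1168 with quantile normalization.

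**Figure D1:**
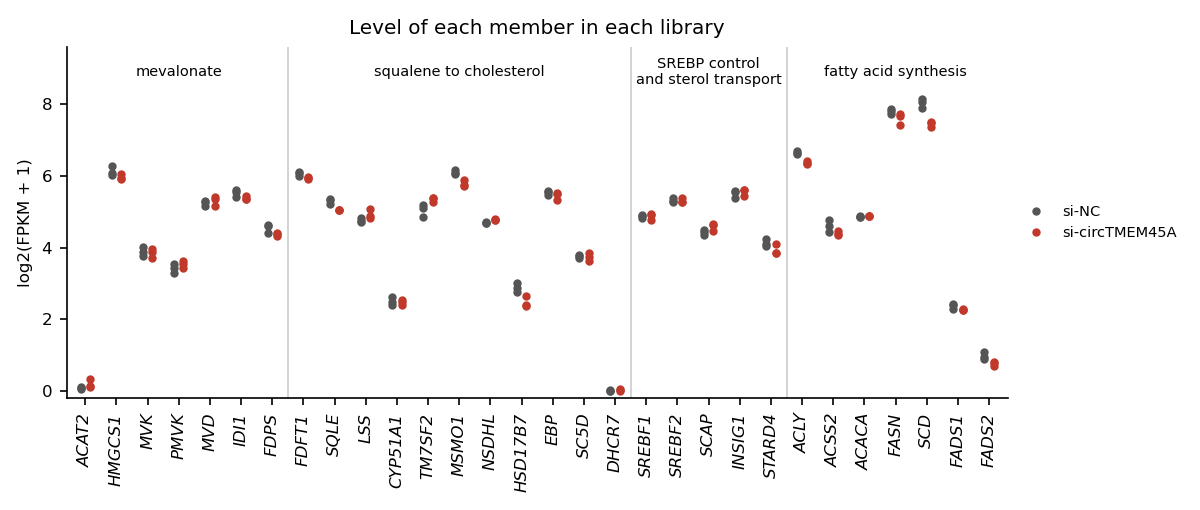
Level of each of the 30 genes in each of the 6 libraries as log2(FPKM + 1), in pathway order, with 1 point per library. FASN and SCD have the highest levels, ACAT2 and DHCR7 lie near 0 in all 6 libraries, and the si-circTMEM45A points of SCD lie below the si-NC points.

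Promoter sequence is shown because SREBP binds DNA beside other factors, among them NF-Y, which reads the word CCAAT. RefSeq windows (GRCh38.p14) were matched by symbol for 26 of the 30 genes, and the 250 bases before each start were searched on both strands. CCAAT was found in 20 of the 26 genes, or 76.9%, against 41.5% of the 8927 tested genes with a window and 32.0% of all 35116 windows; a gene with several windows was counted by the window with the most matches. At least 2 matches were found in 13 of the 26, or 50%, against 15.9% of the tested genes, and at least 3 in 7, or 26.9%, against 5.91%. MVK and NSDHL held 5 matches each. The GC box GGGCGG, read by SP1, was found in 25 of the 26 genes and 76.1% of the tested genes, and the E-box CACGTG in 3 and 11.3%. The sterol regulatory element, searched as TCACNCCAC, was found in 1 of the 26, SREBF2, and in 1.13% of the tested genes. Elements spelled otherwise or lying outside the 250 bases were not searched, so no match does not mean that a gene lacks the element. None of the 4 words contains another, though matches may share end bases, and a match is a description of the letters and not of a bound site.

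Of the 5 genes that fell, SCD, MSMO1, HSD17B7 and ACLY had a window, with 2, 4, 1 and 2 CCAAT matches, and among the 20 members with a window that were tested and not called the number ran from 0 to 5. The upstream bases are printed 5′ to 3′ for 3 genes that fell and for SREBF2, which was not called. All 4 lie on the plus strand: SCD at chr10:100346983-100347232, MSMO1 at chr4:165327419-165327668, HSD17B7 at chr1:162790452-162790701 and SREBF2 at chr22:41832855-41833104. Capitals mark CCAAT, or ATTGG where it lies on the other strand, and in SREBF2 also the sterol regulatory element (TCACNCCAC or its complement), 133 bases before the RefSeq start. A position is that of the match's first base in the printed strand.
SCD: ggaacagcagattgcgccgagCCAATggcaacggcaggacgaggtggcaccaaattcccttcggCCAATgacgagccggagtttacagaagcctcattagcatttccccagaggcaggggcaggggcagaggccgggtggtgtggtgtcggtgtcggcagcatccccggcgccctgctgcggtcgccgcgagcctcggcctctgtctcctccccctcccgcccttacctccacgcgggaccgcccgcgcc
MSMO1: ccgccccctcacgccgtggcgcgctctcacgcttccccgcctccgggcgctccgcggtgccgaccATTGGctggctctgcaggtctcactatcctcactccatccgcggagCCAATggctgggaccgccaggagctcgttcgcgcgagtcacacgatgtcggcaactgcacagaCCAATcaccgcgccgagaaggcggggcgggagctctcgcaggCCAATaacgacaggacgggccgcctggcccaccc
HSD17B7: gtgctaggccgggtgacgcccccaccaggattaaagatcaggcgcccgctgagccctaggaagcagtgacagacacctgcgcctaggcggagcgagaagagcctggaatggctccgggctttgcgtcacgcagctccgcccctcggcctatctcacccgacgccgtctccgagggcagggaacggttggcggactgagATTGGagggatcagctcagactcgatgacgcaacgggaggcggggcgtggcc
SREBF2: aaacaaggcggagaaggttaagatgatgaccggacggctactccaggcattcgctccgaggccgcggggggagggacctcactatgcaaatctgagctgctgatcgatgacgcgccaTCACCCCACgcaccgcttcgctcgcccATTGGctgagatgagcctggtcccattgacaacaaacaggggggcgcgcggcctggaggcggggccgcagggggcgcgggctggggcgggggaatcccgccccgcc
In SCD the matches start 229 and 186 bases before the start, in MSMO1 they run from 185 to 34 bases before it, and the single match of HSD17B7 is 52 bases before it.

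The 5 genes that fell lie, in GRCh38 with GENCODE 29 bounds, on chromosome 10 from 100347124 to 100364834 (SCD, ENSG00000099194), chromosome 17 from 41866908 to 41930542 (ACLY, ENSG00000131473), chromosome 4 from 165327623 to 165343160 (MSMO1, ENSG00000052802), chromosome 8 from 124998497 to 125022283 (SQLE, ENSG00000104549) and chromosome 1 from 162790702 to 162812817 (HSD17B7, ENSG00000132196). Values below are for whole genes, exons joined. SCD, which puts the first double bond into saturated fatty acids, had the largest change of the 27 tested members. Its level was 237.5, 284 and 267 FPKM in the 3 si-NC libraries and 164, 178 and 180 FPKM in the 3 si-circTMEM45A libraries. Each si-circTMEM45A library was below each si-NC library, and the group mean fell by 33.8%. The log2 fold change was -0.59 ± 0.07 (SE, n = 3; limma adjusted p = 0.00305), on the log2(FPKM + 1) scale used for every fold change here. ACLY, which cleaves exported citrate to the acetyl-CoA that both branches use, was at 97.5, 102 and 99.0 FPKM with si-NC and at 79.5, 85.1 and 81.9 FPKM with si-circTMEM45A. The groups did not overlap, and the log2 fold change was -0.27 ± 0.04 (SE, n = 3; limma adjusted p = 0.00465).

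The other fatty acid genes did not pass the test, so that 2 of 6 tested fell and 0 rose, with 4 lower and 0 higher both at an unadjusted limma p of 0.05 (all tested genes 13.8% and 20.3%) and in limma voom (11.1% and 15.5%). FASN, the fatty acid synthase and with SCD 1 of the 2 most abundant members per length, was at 212, 223 and 233 FPKM with si-NC and at 172, 212 and 203 FPKM with si-circTMEM45A. Replicate 2 of si-circTMEM45A lay above the lowest si-NC library by less than 1 FPKM, so the groups overlapped (log2 fold change -0.19 ± 0.08, SE, n = 3; limma adjusted p = 0.139; range over 17 alternatives 0.00716 to 0.352). Limma voom called FASN lower, with the lowest of these p-values, and without si-circTMEM45A replicate 1 its log2 fold change was -0.10. ACSS2, which makes acetyl-CoA from acetate, averaged 23.5 ± 2.73 and 20.1 ± 0.94 FPKM (SD, n = 3), with a limma adjusted p of 0.115; without si-NC replicate 1 limma called it lower (adjusted p = 0.0454; range over 17 alternatives 0.0141 to 0.290), and without si-NC replicate 2 its log2 fold change went from -0.21 to -0.13. ACACA, the acetyl-CoA carboxylase that commits carbon to fatty acids, was level at 28.2 ± 0.21 and 28.4 ± 0.20 FPKM (SD, n = 3), and the 95% interval of its log2 fold change ran from -0.06 to 0.09. The desaturase FADS1 averaged 4.15 and 3.82 FPKM. FADS2, the other desaturase of polyunsaturated fats, was under the filter at 0.87, 0.92 and 1.13 FPKM with si-NC and 0.62, 0.70 and 0.76 FPKM with si-circTMEM45A. Its values did not overlap between groups and rested on 118 to 211 reads per library, but it was not tested.

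**Figure D2:**
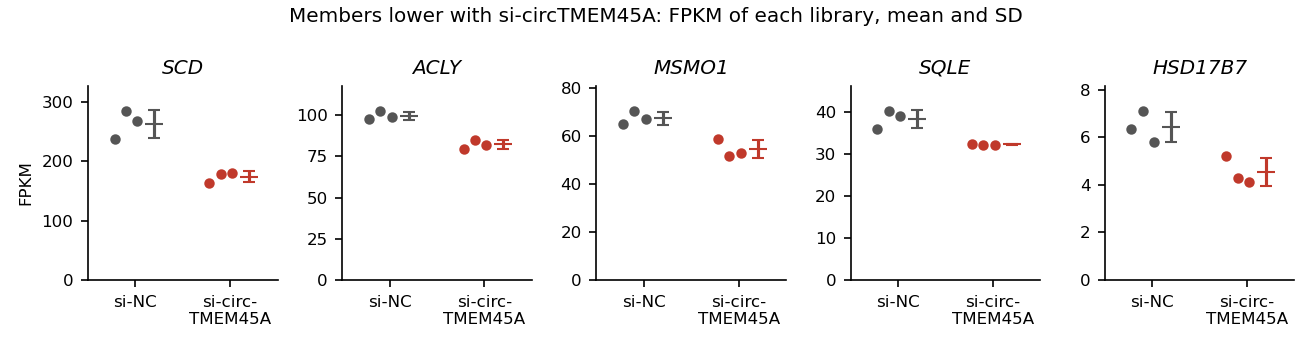
FPKM of the 5 genes called lower, with 1 point per library and the mean and SD of each group (n = 3) beside the points; each axis starts at 0. In all 5 panels the 3 si-circTMEM45A points lie below the 3 si-NC points.

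In the late pathway, from squalene on, 3 of 10 tested enzymes fell and 0 rose in limma, with 4 lower and 2 higher at an unadjusted p of 0.05 (all tested genes 13.8% and 20.3%) and likewise 4 and 2 in limma voom (11.1% and 15.5%). MSMO1, which removes methyl groups from the sterol ring, was at 65.1, 70.4 and 67.1 FPKM with si-NC and at 58.75, 51.9 and 53.2 FPKM with si-circTMEM45A (log2 fold change -0.30 ± 0.05, SE, n = 3; limma adjusted p = 0.0113). SQLE, the squalene epoxidase and a rate-limiting step, was at 35.9, 40.1 and 38.9 FPKM with si-NC. Its 3 si-circTMEM45A libraries were nearly equal, at 32.3, 32.2 and 32.2 FPKM (log2 fold change -0.24 ± 0.05, SE, n = 3; limma adjusted p = 0.0138). HSD17B7, a reductase of the same demethylation steps, was at 6.37, 7.10 and 5.82 FPKM with si-NC and at 5.22, 4.30 and 4.13 FPKM with si-circTMEM45A. The groups of all 3 genes were apart. The log2 fold change of HSD17B7 was -0.42 ± 0.09 (SE, n = 3; limma adjusted p = 0.0232). That call was lost in limma without si-NC replicate 1 or 2 (adjusted p = 0.0648 and 0.0708), without si-circTMEM45A replicate 2 or 3 (0.0714 and 0.0743) and when low genes were kept in (0.0874, the highest of 17 alternatives, of which the lowest was 0.000444).

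Other enzymes of these steps went different ways without passing the test. TM7SF2, a sterol reductase, was at 33.5, 27.8 and 35.6 FPKM with si-NC and at 37.8, 40.5 and 41.0 FPKM with si-circTMEM45A. Its groups did not overlap, and its limma adjusted p was 0.0525 (log2 fold change 0.30 ± 0.09, SE, n = 3); without si-NC replicate 3 limma called it higher (adjusted p = 0.0402; range over 17 alternatives 0.00108 to 0.169). FDFT1, the squalene synthase, averaged 66.0 ± 2.17 and 60.6 ± 0.88 FPKM (SD, n = 3), apart between groups, with a limma adjusted p of 0.0585; with median-of-ratios scaling limma called it lower (0.0237; range over 17 alternatives 0.0237 to 0.162). NSDHL, which acts between MSMO1 and HSD17B7 in the demethylation, averaged 25.0 ± 0.40 and 26.5 ± 0.29 FPKM (SD, n = 3), also apart but in the other direction (limma adjusted p = 0.131). The lanosterol synthase LSS averaged 26.3 and 29.6 FPKM, with overlapping groups (limma adjusted p = 0.171; range over 17 alternatives 0.0331 to 0.366). Limma voom called LSS higher, with the lowest of these p-values, and without si-circTMEM45A replicate 2 its log2 fold change went from 0.16 to 0.08. The isomerase EBP averaged 45.2 and 42.6 FPKM and the desaturase SC5D 12.4 and 12.3 FPKM, and their groups overlapped. In all, 6 of the 27 tested members were apart and lower, against 16.0% of all tested genes, and 2 were apart and higher, against 23.3% (39.2% in either direction). The exact permutation test, two-sided on mean FPKM, gave p = 0.1 for each of these, the smallest p possible with 3 libraries a group.

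**Figure D3:**
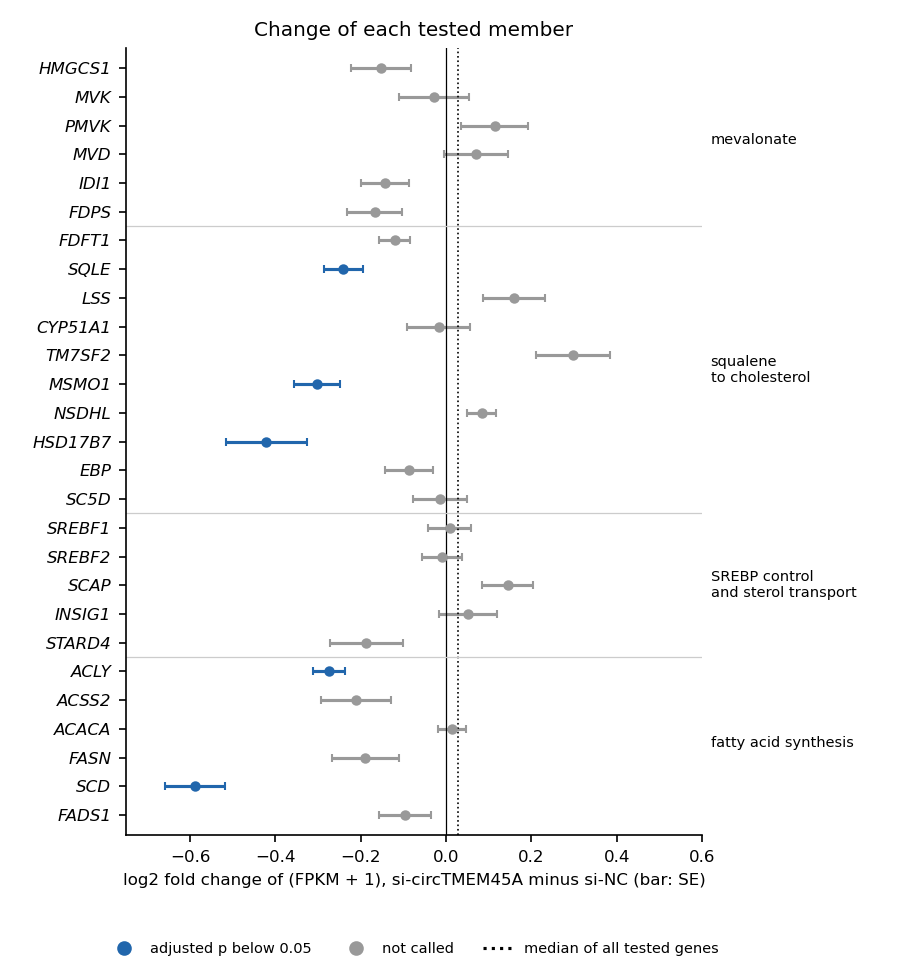
Log2 fold change of (FPKM + 1), si-circTMEM45A minus si-NC, of the 27 tested genes in pathway order, with bars of 1 SE from limma (n = 3 per group); blue points passed an adjusted p of 0.05 and the dotted line is the median of all tested genes, 0.03. The blue points are SQLE, MSMO1, HSD17B7, ACLY and SCD, with SCD farthest from 0 and TM7SF2 farthest in the other direction.

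Of the 6 tested enzymes of the mevalonate steps, 0 passed the limma test in either direction, with 2 lower and 0 higher at an unadjusted p of 0.05 (all tested genes 13.8% and 20.3%) and 3 lower and 0 higher in limma voom (11.1% and 15.5%). HMGCS1, which makes HMG-CoA, was at 63.8, 76.7 and 67.3 FPKM with si-NC and at 61.1, 65.2 and 59.8 FPKM with si-circTMEM45A, and the groups overlapped (log2 fold change -0.15 ± 0.07, SE, n = 3; limma adjusted p = 0.173; range over 17 alternatives 0.0332 to 0.374). Limma voom called HMGCS1 lower, with the lowest of these p-values, and without si-NC replicate 2 its log2 fold change was -0.08. The isopentenyl diphosphate isomerase IDI1 averaged 45.0 ± 3.10 and 40.6 ± 1.53 FPKM and the farnesyl diphosphate synthase FDPS 22.4 ± 2.00 and 19.8 ± 0.54 FPKM (SD, n = 3). In both, si-NC replicate 1 lay within the range of the si-circTMEM45A libraries, and without it limma called both lower (adjusted p = 0.0491 and 0.0274, where the ranges over 17 alternatives were 0.0380 to 0.292 and 0.0274 to 0.288). The kinases MVK (13.8 and 13.5 FPKM) and PMVK (9.73 and 10.6 FPKM) and the decarboxylase MVD (36.8 and 38.8 FPKM) had overlapping groups.

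The transcripts of the SREBP factors themselves were close between groups. SREBF1 was at 27.3, 28.3 and 28.8 FPKM with si-NC and at 26.4, 29.4 and 29.1 FPKM with si-circTMEM45A. SREBF2 was at 37.7, 38.1 and 40.6 FPKM with si-NC and at 37.4, 40.5 and 37.8 FPKM with si-circTMEM45A. The 95% interval of the log2 fold change ran from -0.11 to 0.13 for SREBF1 and from -0.12 to 0.10 for SREBF2. Shifts within these intervals could not be told from no shift with 3 libraries a group. These transcripts do not measure SREBP cleavage, and a part of either factor in the falls above was not tested.

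INSIG1, itself a well-known SREBP target, was at 41.0, 47.2 and 45.6 FPKM with si-NC and at 42.7, 48.2 and 47.9 FPKM with si-circTMEM45A, with an interval from -0.11 to 0.21. SCAP was at 21.6, 19.6 and 20.8 FPKM with si-NC and at 21.2, 23.6 and 24.0 FPKM with si-circTMEM45A; replicate 1 of si-circTMEM45A lay among the si-NC values (limma adjusted p = 0.133), and without it limma called SCAP higher (adjusted p = 0.0467; range over 17 alternatives 0.0413 to 0.320). STARD4, which moves sterol between membranes, averaged 16.5 ± 1.31 and 14.4 ± 1.6 FPKM (SD, n = 3; limma adjusted p = 0.172), and without the same library limma called it lower (adjusted p = 0.0461; range over 17 alternatives 0.0371 to 0.391). None of the 5 genes of this group passed in limma with all libraries. At an unadjusted limma p of 0.05 SCAP was the 1 higher gene and 0 were lower (all tested genes 20.3% and 13.8%). In limma voom SCAP was called higher and STARD4 lower (all tested genes 15.5% and 11.1%).

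**Figure D4:**
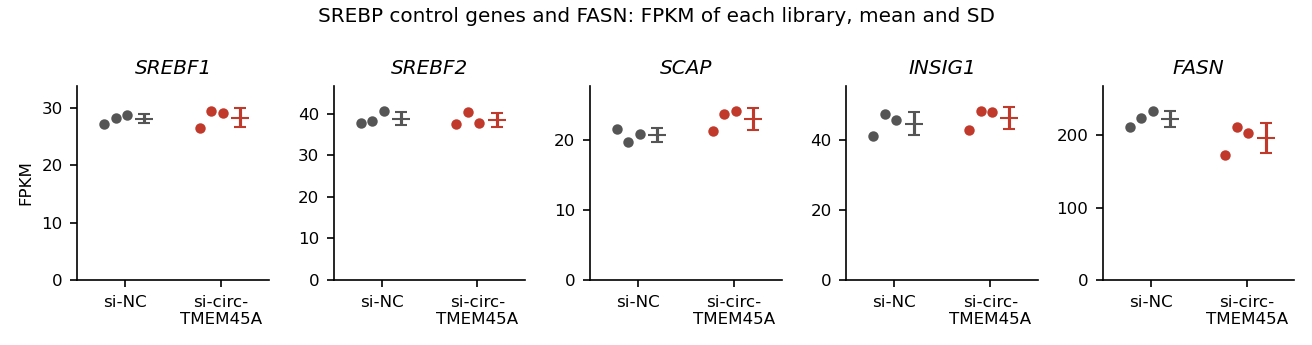
FPKM of SREBF1, SREBF2, SCAP, INSIG1 and FASN, with 1 point per library and the mean and SD of each group (n = 3) beside the points; each axis starts at 0. The points of the groups overlap in all 5 panels.

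As groups, the 16 tested sterol synthesis genes had a median log2 fold change of -0.06 and the 6 tested fatty acid genes one of -0.20, beside 0.03 for all tested genes; the difference between the 2 groups was not tested. The sterol median was -0.05 without si-circTMEM45A replicate 1 and -0.09 without si-circTMEM45A replicate 2, and also -0.09 with median-of-ratios scaling. The fatty acid median was -0.14 without si-circTMEM45A replicate 1 and -0.26 without si-NC replicate 1. Of the 27 tested members 18 had a log2 fold change below 0, against 43.3% of all tested genes. In each library the median of a group was also taken relative to the si-NC mean. For fatty acid genes it was -0.30, -0.12 and -0.17 in the si-circTMEM45A libraries, all below the si-NC libraries, which lay between -0.05 and 0.02. For sterol genes it was -0.11, -0.06 and -0.01, and the third of these lay within the si-NC range of -0.05 to 0.04.

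Per length, the members spanned from near 0 to the levels of SCD and FASN, whose libraries overlapped. Next below FASN and SCD were ACLY and then HMGCS1, FDFT1 and MSMO1, which lay between 61.1 and 65.6 FPKM on average over the 6 libraries and whose order is within their spread. At the other end, DHCR7, the last reductase of the pathway, had 0 to 3 reads per library, and ACAT2, the thiolase of the first step, had 3 to 19 reads per library, or 0.04 to 0.26 FPKM. Their neighbours were expressed: NADSYN1 next to DHCR7 averaged 4.44 FPKM with si-NC, and WTAP and TCP1 on either side of ACAT2 averaged 7.53 and 60.5 FPKM. DHCR7 shares 0% of its exon bases with another gene of GENCODE 29, while ACAT2 shares 52.3%, all with genes of the other strand, so the counting of ACAT2 is uncertain. For neither gene do these values separate an absent transcript from reads that were not counted. CYP51A1, the lanosterol demethylase, had 4.66 ± 0.44 and 4.58 ± 0.27 FPKM (SD, n = 3), and 83.2% of its exon bases lie in exons of other genes, 79.4% in the same-strand gene AC000120.2, so its low level is uncertain too. IDI1, FDPS and HMGCS1 share 14.8%, 18.6% and 14.95% with opposite-strand genes, and the other 25 members at most 7.88%. SCD, MSMO1, SQLE and HSD17B7 share 0% and ACLY 2.99%. The library protocol marked the second strand, but how reads in shared bases were counted, with or without strand, was not given in the sources used here.

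Other genes of sterol and lipid handling, in 6 lists, moved in both directions. Of 46 listed genes 42 were tested, of which 5 rose and 4 fell, or 21.4% called against 18.8% of all tested genes. Among lipoprotein uptake and sterol transport genes 3 of 12 fell and 1 rose, where 7.64% of all tested genes fell and 11.1% rose. The lipoprotein receptor LRP1 was at 11.7, 11.7 and 12.5 FPKM with si-NC and at 7.62, 7.23 and 8.67 FPKM with si-circTMEM45A, well apart (log2 fold change -0.55 ± 0.07, SE, n = 3; limma adjusted p = 0.00322). OSBP, which moves cholesterol to the Golgi, rose from 24.2 ± 0.52 to 30.3 ± 0.74 FPKM (SD, n = 3; limma adjusted p = 0.00312). The other 2 genes of this list that fell, named after their values were seen, were SOAT1, which esterifies cholesterol (6.57 ± 0.21 to 5.08 ± 0.44 FPKM; limma adjusted p = 0.0170), and TMEM97, an endoplasmic reticulum protein of sterol transport (11.2 ± 0.49 to 9.34 ± 0.60 FPKM; limma adjusted p = 0.0317).

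Among 10 genes of SREBP processing and turnover, the protease MBTPS2, which makes the last cut of SREBP, fell from 5.32 ± 0.10 to 4.44 ± 0.26 FPKM (SD, n = 3; limma adjusted p = 0.0359). The ubiquitin ligase RNF139 of the sterol-sensing machinery rose from 9.92 ± 0.78 to 12.6 ± 0.66 FPKM (SD, n = 3; limma adjusted p = 0.0179). Among 7 tested genes of fatty acid activation and glycerolipid synthesis 2 rose and 0 fell in limma, where 11.1% of all tested genes rose and 7.64% fell. At an unadjusted limma p of 0.05, 2 were higher and 1 lower (all tested genes 20.3% and 13.8%). Limma voom likewise gave 2 higher and 1 lower (15.5% and 11.1%). The phosphatidate phosphatase LPIN1 was at 7.01, 7.67 and 7.30 FPKM with si-NC and at 10.1, 9.75 and 9.41 FPKM with si-circTMEM45A (log2 fold change 0.37 ± 0.05, SE, n = 3; limma adjusted p = 0.00436). SCD5, a second stearoyl-CoA desaturase, rose from 28.3 ± 1.09 to 32.1 ± 1.63 FPKM (SD, n = 3; limma adjusted p = 0.0462) while SCD fell. Of 2 tested genes of sterol efflux and LXR, the sterol-sensing receptor NR1H2 rose from 36.2 ± 1.19 to 39.9 ± 0.84 FPKM (SD, n = 3; limma adjusted p = 0.0469).

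None of the 7 genes of the isoprenoid branch and none of the 4 tested electron donors and scaffold genes passed in limma or limma voom. Of all tested genes 18.8% passed in limma and 26.6% in limma voom. At an unadjusted limma p of 0.05, 1 isoprenoid gene was higher and 0 genes of either list were lower (all tested genes 20.3% and 13.8%). Of the 7 isoprenoid genes 6 had a log2 fold change above 0, and their median was 0.11, beside 0.03 for all tested genes. The groups of 3 of the 7 were apart and higher, against 23.3% of all tested genes. The limma calls of LRP1, OSBP and LPIN1 held in all 17 alternatives. Those of NR1H2, SCD5, MBTPS2, TMEM97, RNF139 and SOAT1 were lost in 11, 10, 7, 6, 4 and 4 of them. Leaving out any 1 of the 6 libraries removed the call of NR1H2. The same held for SCD5 with any 1 but si-circTMEM45A replicate 2, and for MBTPS2 with any 1 but si-circTMEM45A replicate 1. For TMEM97 the libraries whose removal ended the call were replicates 1 and 3 of both groups, for RNF139 si-NC replicates 2 and 3 and replicate 3 of si-circTMEM45A, and for SOAT1 si-NC replicates 1 and 3 and replicate 3 of si-circTMEM45A. The limma adjusted p over the alternatives reached 0.142 for NR1H2, 0.136 for SCD5, 0.110 for MBTPS2, 0.0947 for TMEM97, 0.0598 for RNF139 and 0.0576 for SOAT1.

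**Figure D5:**
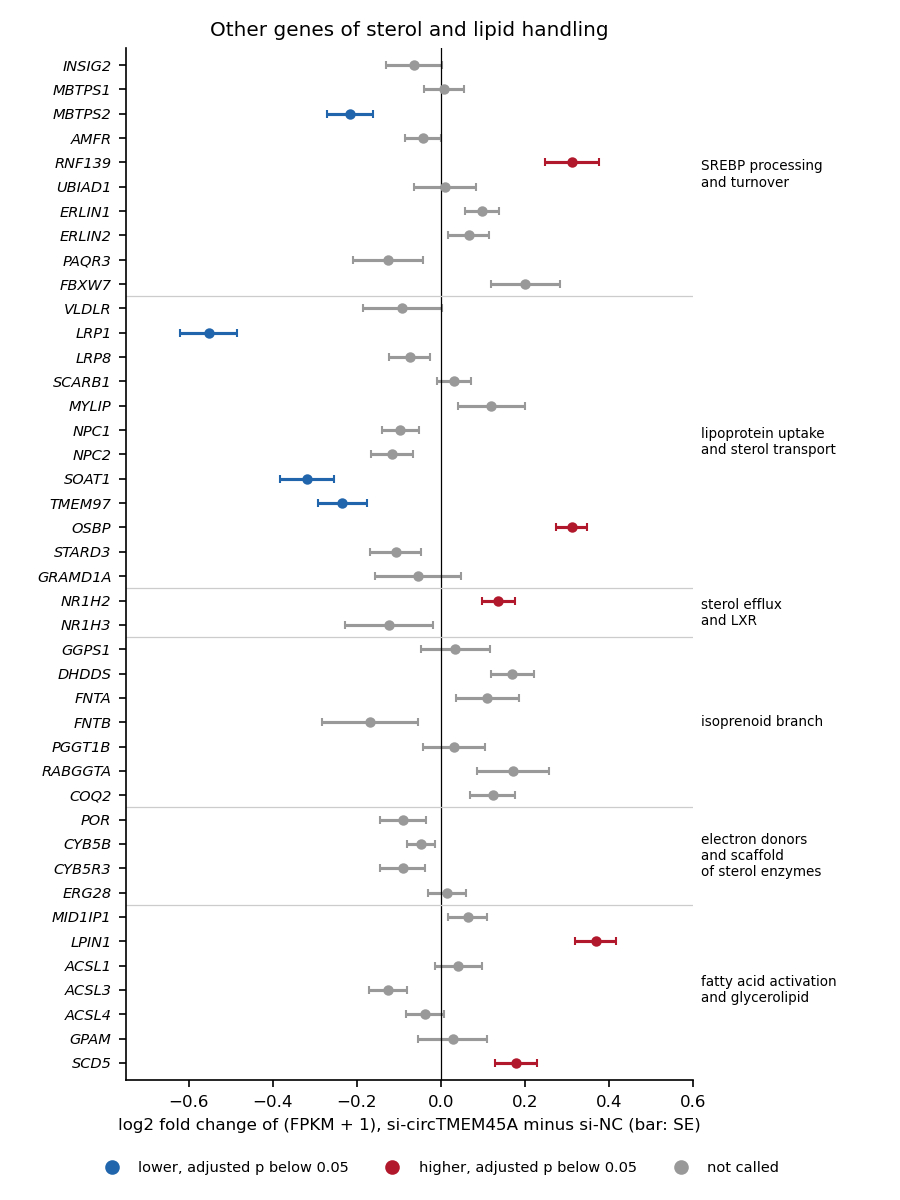
Log2 fold change of (FPKM + 1), si-circTMEM45A minus si-NC, of the 42 other tested genes of sterol and lipid handling in 6 lists, with bars of 1 SE from limma (n = 3 per group); blue points were called lower and red points higher at an adjusted p of 0.05. LRP1 is farthest to the lower side, and LPIN1, RNF139 and OSBP are farthest to the higher side.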

How the data were processed

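PolyA-selected RNA of 6 KYSE-150 libraries was sequenced, per the labels' protocols. The authors deposited FPKM per Ensembl gene, 1 column per library. The submitters' processing notes name GRCh38, HTSeq, StringTie 2.1.6, TopHat2, HISAT2 2.2.1 and cutadapt 1.9, with roles and annotation not given in the sources used here. Titles and the series design gave the groups. Symbols were found for 29593 of 29816 gene IDs. With the GENCODE 29 union exon length and 1 total for each library, 100% of FPKM values came out as whole reads (tolerance 0.001), so depth is known although the unit is FPKM, and levels per length depend on that exon length. Replicate pairs differed by 2.73 to 5.16 times counting noise, so none was counted as the same library sequenced again. These ratios do not tell separate cultures from repeat libraries of the same culture.

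The tested genes had at least 1 FPKM in 3 or more libraries. They were fitted with limma 3.58.1 under R 4.3.3 (mean-variance trend, two-sided, pseudocount 1), a step checked on simulated data. The check recovered 6 of 50 genes changed 1.2-fold, 37 of 50 changed 1.5-fold and 45 of 50 changed 2-fold, with 10 false calls. Its reads were drawn with the same extra spread for every gene. Only 50 genes per fold were changed, far fewer than the 2380 called in the data. Since the adjusted p depends on how many genes change, these recovery rates need not hold for the data. Fold changes of log2(FPKM + 1) understate changes of low genes. The members, lists and tests were chosen with earlier results of these data known. The text names every member, the called genes of smallest p of each other list (up to 2) and TMEM45A. Members called, the 2 most abundant and SREBF1, SREBF2, SCAP and INSIG1 have their value in every library, and others were added after their values were seen. Alternatives were other pseudocounts, filters and scalings, no trend, robust estimation, voom, leaving out each library and a replicate block. Python 3.11.15, scipy 1.17.1 and matplotlib 3.10.9 were used.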

Additional observations from a re-analysis of the deposited data

How the results depend on the processing

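The calls of SCD, ACLY, MSMO1 and SQLE held in all 17 alternatives, and that of HSD17B7 in 12. The highest limma adjusted p over the alternatives was 0.0190 for SCD, 0.0224 for ACLY, 0.0446 for MSMO1 and 0.0485 for SQLE, the last 2 close to the threshold. Of the fits of other members, 332 kept direction and call, 22 gained a call and 18 changed sign, none of them called. The number of members called lower was 12 in limma voom on recovered reads and 4 to 7 with each library left out. The number called higher was 3 in voom, 1 (TM7SF2) with FPKM of at least 5, 1 with quantile normalization, 1 with robust estimation and 0 to 1 with each library left out. Over all tested genes, the counts higher and lower were 728 and 526 with no filter on low values, and 775 to 1088 and 548 to 857 with each library left out. The log2 fold changes that changed sign were all near 0. SREBF1 was at -0.00013 with TPM, -0.026 with median-of-ratios scaling and -0.017 with quantile normalization, and ACACA at -0.021 and -0.012 with the latter 2 settings. With each library left out, SREBF1 ran from -0.018 to 0.057, SREBF2 from -0.044 to 0.022, INSIG1 from -0.0075 to 0.11, CYP51A1 from -0.068 to 0.042, SC5D from -0.069 to 0.043 and MVK from -0.085 to 0.039. The cause was not tested. CYP51A1 and FADS1 gave no value with FPKM of at least 5. Same-numbered libraries of the 2 groups are known to share only a number. Their correlations of deviations from the group means were 0.026, 0.011 and 0.047. The best match of si-NC replicates 1 and 3 was the same-numbered library, and that of si-NC replicate 2 was si-circTMEM45A replicate 1. With 3 libraries a group, these values cannot decide whether the libraries were paired. With the replicate block, 1000 genes were higher and 720 lower, and 5 members were lower and 0 higher; limma lost the calls of MBTPS2, TMEM97, NR1H2 and SCD5 (adjusted p = 0.0786, 0.0625, 0.0658 and 0.0920). With 3 libraries a group, small shifts were not detectable. The 95% interval was not the limit of a call. TM7SF2 (0.095 to 0.50) and FDPS (-0.32 to -0.014) had intervals that left out 0 and were not called. The same held for IDI1, FDFT1, NSDHL, SCAP, ACSS2 and FASN.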
